A study of Mus musculus with 8 samples.

Results

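Respiratory complex I is the largest enzyme of the mitochondrial electron transport chain, and its nuclear subunits are described here in mouse adipocytes that received spliced XBP1. The members are the genes whose symbol begins Ndufa, Ndufb, Ndufc, Ndufs or Ndufv followed by a digit, read from probe sets annotated with that symbol alone. The rule found 33 genes of the 12393 measured, covered by 65 of the 22626 probe sets tested, and each gene is represented by its brightest probe set. The rule used no measured difference between the groups. Ndufa4l2, which the pattern would also take, was not found among the probe sets annotated with a single symbol.

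Total RNA from 8 samples was hybridised to Affymetrix arrays, 1 array a sample. The 4 sXBP1 samples were adipocytes given an adenovirus that expresses sXBP1, the spliced and active form of the transcription factor XBP1, and the 4 GFP samples were given an adenovirus that expresses green fluorescent protein. Both groups therefore carried a virus, and no uninfected cells were part of the comparison. The labels name the cells as F442A adipocytes, a mouse preadipocyte line differentiated in culture, while the cell line field reads 3T3L1 and the background strain field Swiss. Cells were infected at day 6 to 8 of differentiation and collected 4 to 6 days later, and the labels give these times only as ranges for all samples. The labels do not state whether replicates came from cultures grown apart, and every p-value here therefore reflects variation among these arrays, part or all of which may be technical. The comparison asks which transcripts differ when adipocytes are given sXBP1.

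Complex I takes electrons from NADH, passes them along a chain of iron-sulfur clusters to ubiquinone, and uses the energy to pump protons across the inner mitochondrial membrane. It is built from an N module that binds NADH, a Q module that reduces ubiquinone, and a membrane arm with a proximal and a distal part that pumps protons. A conserved catalytic core, encoded partly by nuclear and partly by mitochondrial genes, carries the reaction, and the surrounding accessory subunits serve assembly and stability. In adipocytes, mitochondrial oxidation supplies ATP and intermediates for the making and remodelling of stored fat.

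Sequences at the starts of these genes are printed because most of the transcripts were lower together, and short motifs known for regulators of respiratory genes were searched in them. Windows reaching 250 bases before and 50 bases after the annotated start were found for 30 of the 33 genes, from RefSeq on mouse build GRCm38.p6. Ndufa2, Ndufb9 and Ndufs1 had none. The motif AAGATGGCG, known for the factor YY1, was held by 4 of 30 members (13.3%) and by 1.49% of 27025 promoters, each gene counted once and both strands searched. In all 4 it lay on the gene's own strand, beginning 22 to 35 bases after the first start that the promoter table lists for the gene, and the capitals mark it. For Ndufs7 that start lies inside the gene's annotated span, downstream of its outermost start. Ndufa9, Ndufs4 and Ndufs7 were lower in sXBP1 cells, and Ndufc1 did not pass the test.
Ndufa9, chr6:126849097-126849125, minus strand: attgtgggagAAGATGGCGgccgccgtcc
Ndufc1, chr3:51408915-51408943, minus strand: cctgcggaacAAGATGGCGccgtccgtag
Ndufs4, chr13:114388045-114388069, minus strand: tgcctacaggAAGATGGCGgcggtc
Ndufs7, chr10:80249463-80249491, plus strand: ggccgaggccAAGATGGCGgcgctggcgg
The motif contains ATG, and whether that ATG is the start codon was not analysed.

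The core of the element bound by XBP1, GACGTG, was found in 3 of 30 members (10%) and in 6.35% of all promoters. Its capitals read CACGTC where the match lies on the opposite strand.
Ndufa3, chr7:3617299-3617324, plus strand: cgaaagggtcCACGTCctcgcccaag
Ndufb1, chr12:101975857-101975882, minus strand: agcctggatcCACGTCttattcaaaa
Ndufb10, chr17:24724374-24724389, minus strand: agcggatccgGACGTG
The match began 64 bases before the start in Ndufa3, 134 bases before it in Ndufb1 and 44 bases after it in Ndufb10. For Ndufa3 too, the listed start lies downstream of the outermost annotated one. The 3 genes did not move alike, as Ndufb1 was higher and Ndufa3 and Ndufb10 were lower in sXBP1 cells.

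Other letters searched on both strands were GCGCATGCG for NRF1, found in 1 member (3.3%, against 1.81% of all promoters), and AAGGTCA, a site of estrogen-related receptors, found in 2 members (6.7%, against 4.66%). CCGGAAGT, bound by ETS factors such as GABP, was held by 1 member (3.3%, against 4.0%), and CCAAT by 8 members (26.7%, against 37.92%). No motif contains another. The 150 bases before the start of Ndufb8, the member with the smallest p, held none of these motifs, and nor did the rest of its window.
Ndufb8, chr19:44555443-44555592, minus strand: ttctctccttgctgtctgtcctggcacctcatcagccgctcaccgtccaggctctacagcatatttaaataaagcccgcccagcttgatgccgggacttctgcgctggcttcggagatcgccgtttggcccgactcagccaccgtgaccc
These matches describe the letters in the windows and are not evidence of binding.

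The arrays resembled each other closely, with correlations of 0.987 to 0.990 within sXBP1, 0.989 to 0.991 within GFP and 0.977 to 0.984 between the groups. The median deposited signal was 117 to 140 on sXBP1 arrays and 135 to 154 on GFP arrays (exact permutation p = 0.0857, two-sided). The ratio of the 3' to the 5' Gapdh probe set, a sign of RNA quality, was 0.775 to 0.802 on sXBP1 arrays and 0.810 to 0.820 on GFP arrays (exact permutation p = 0.0286, two-sided; 4 against 4 arrays can give no smaller p). Within the sXBP1 group, adipocyte markers lay lower on arrays 3 and 4, with mean shifts from GFP of -0.75 and -0.91 on the log2 scale, than on arrays 1 and 2, with -0.38 and -0.40. Xbp1 itself had a log2 change of 0.07 ± 0.04 (SE) on its brightest probe set, with a normalized signal of 10299 ± 383 in sXBP1 cells and 9798 ± 255 in GFP cells (SD, n = 4 each; limma adjusted p = 0.271). It did not pass the test, but it was higher under median centring (0.21, limma adjusted p = 0.0307). Whether its probes read the viral transcript was not analysed. The adipocyte label had its defining markers: Fabp4 and Adipoq were called present on all 8 arrays. Preadipocyte and fibroblast markers such as Dlk1, Col1a1 and Col3a1 were called present on all 8 arrays as well.

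Most nuclear complex I subunit transcripts were lower in sXBP1 cells. Of 33 genes, 22 were lower and 2 were higher, and 9 did not pass the test (limma, Benjamini-Hochberg adjusted p under 0.05 over all tested probe sets). Over all genes 14.4% were lower and 12.9% higher by the same test. All 33 were called present on all 8 arrays by the deposited detection calls. Among the 7203 genes called present on every array 22.6% were lower. The mean deposited signal had a median of 3796 over the members and of 192 over all genes. These shares were not matched to the members for signal. The median log2 change was -0.24 for the complex I genes, -0.03 for the genes present on every array and -0.01 for all genes. The estimate was negative for 29 of the 33. In bulk samples fewer cells of a type and less RNA per cell cannot be told apart.

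The changes were modest in size. The 22 lower genes had levels of 0.635 to 0.880 times the GFP level, with a median log2 change of -0.31, and 0 of them differed by at least 2-fold. All genes called lower had a median log2 change of -0.40, and 73 of those 1785 differed by at least 2-fold. Groups did not overlap, with all 4 sXBP1 values below all 4 GFP values, for 24 of the 33 members and for 16% of all genes. All 4 sXBP1 values lay above all 4 GFP values for 2 members and for 14.1% of all genes. The split depends on scaling: when each array was centred on its median in place of quantile normalization, 13 members were lower and 3 higher, with a median of -0.13. Under that scaling 10.6% of all genes were lower and 16.8% higher. All 22 lower members still had negative estimates there, and the median of all genes was 0.07.

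**Figure D1:**
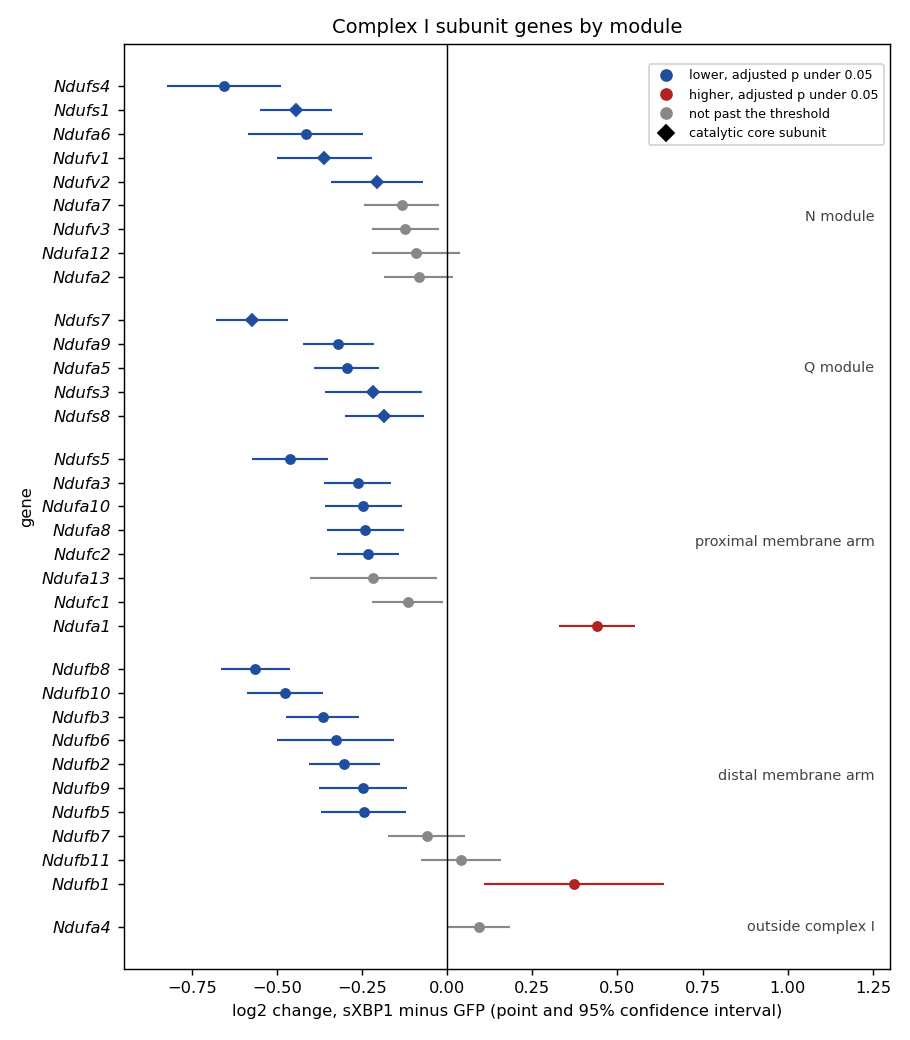
Log2 change (sXBP1 minus GFP) of the 33 genes with its 95% confidence interval, grouped by module, with diamonds for catalytic core subunits and colours for the call. The Q module and all 6 measured core subunits lie left of 0 past the threshold, and Ndufa1 and Ndufb1 are the 2 genes past it on the right.

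The catalytic core was lower throughout. All 6 nuclear core subunits measured here were lower, with a median log2 change of -0.29. Of the 26 accessory genes, 16 were lower and 2 higher, with a median of -0.25. Ndufs7, on chromosome 10 at 80249105 to 80256794, encodes the subunit that holds the terminal iron-sulfur cluster next to the ubiquinone pocket. Its normalized signals were 2177, 2074, 2135 and 2006 on the sXBP1 arrays, against 2936, 3111, 3196 and 3285 on the GFP arrays. The groups lay far apart, at 2098 ± 74.4 in sXBP1 cells and 3132 ± 149 in GFP cells (SD, n = 4 each), a log2 change of -0.57 ± 0.05 (SE; limma adjusted p = 1.94e-05).

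Ndufs1, the largest core subunit of the N module and a carrier of several iron-sulfur clusters, had signals of 1985, 1985, 1947 and 1806 in sXBP1 cells, against 2536, 2564, 2748 and 2677 in GFP cells. Every sXBP1 array was below every GFP array, and the log2 change was -0.44 ± 0.05 (limma adjusted p = 9.29e-05). Ndufv1, which binds the flavin and oxidises NADH, had signals of 5096, 4832, 4462 and 4107 in sXBP1 cells, against 6065, 5903, 5792 and 5934 in GFP cells. Its groups were apart too, with sXBP1 arrays 3 and 4 lowest, and the log2 change was -0.36 ± 0.06 (limma adjusted p = 0.00185).

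The other 3 core genes differed less. Ndufs3, a Q module subunit without an iron-sulfur cluster, had signals of 2725, 2830.1, 2315 and 2449 in sXBP1 cells, against 3098, 2871, 2957 and 3043 in GFP cells. Its highest sXBP1 value stood just under its lowest GFP value, and the log2 change was -0.22 ± 0.06 (limma adjusted p = 0.0319). Ndufv2, an N module partner of Ndufv1 with an iron-sulfur cluster, had signals of 4400.3, 4105, 3615 and 3748 in sXBP1 cells, against 4438, 4726, 4535 and 4560.5 in GFP cells. Here too sXBP1 array 1 nearly met the lowest GFP array, and the log2 change was -0.21 ± 0.06 (limma adjusted p = 0.0321). Ndufs8, the iron-sulfur protein beside Ndufs7, had signals of 4466, 4027, 4576 and 4054 in sXBP1 cells, against 4809.7, 4686, 4933 and 5018 in GFP cells. All sXBP1 arrays were below all GFP arrays, and the log2 change was -0.18 ± 0.05 (limma adjusted p = 0.0251). All 3 lost the call under median centring, with limma adjusted p of 0.188 for Ndufs3, 0.315 for Ndufv2 and 0.543 for Ndufs8. These 3 calls were also lost when single arrays were left out: Ndufv2 without any one of sXBP1 arrays 3 and 4 and of the 4 GFP arrays (adjusted p up to 0.0891), Ndufs3 without sXBP1 array 3 or 4 or GFP array 1, 3 or 4 (up to 0.0816), and Ndufs8 without sXBP1 array 2 or 4 or GFP array 3 or 4 (up to 0.0759).

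**Figure D2:**
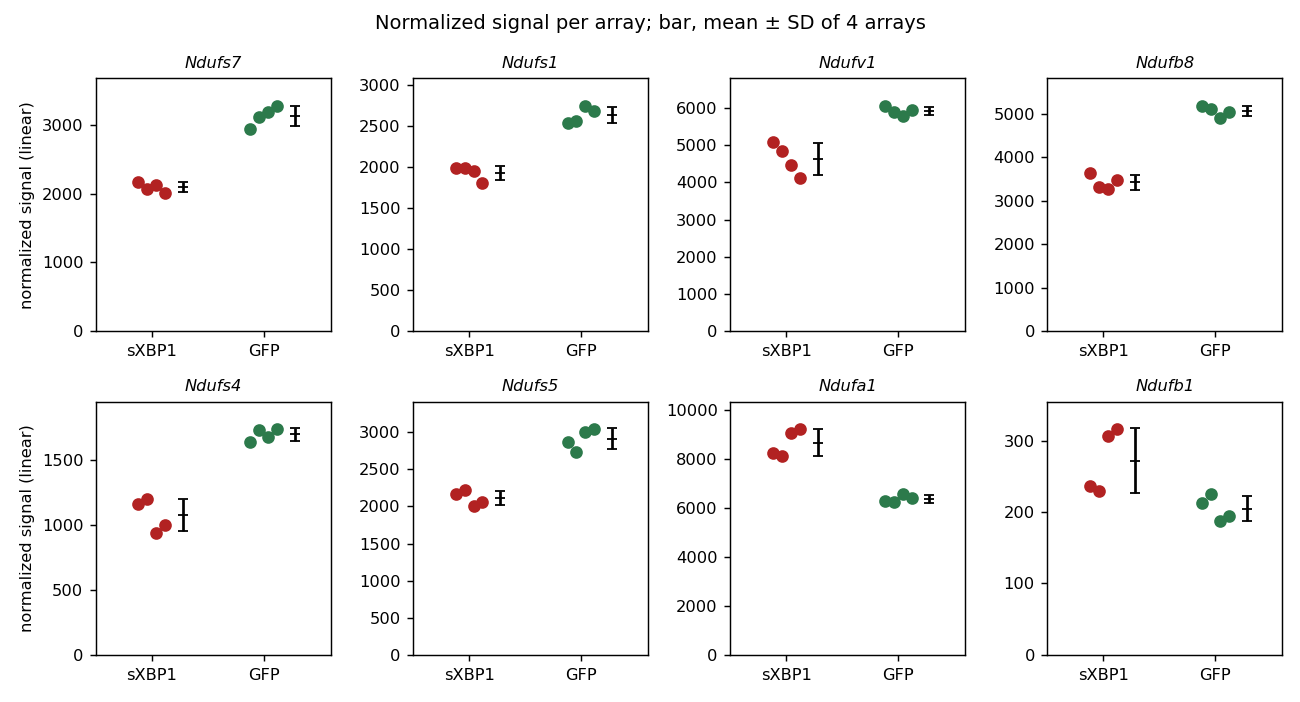
Normalized signal (linear, from 0) of 8 complex I genes on each array, sXBP1 left and GFP right, with points for arrays and bars for the mean and SD of 4 arrays. In 6 of the genes all sXBP1 points lie below all GFP points, and in Ndufa1 and Ndufb1 all lie above.

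By module, all 5 measured Q module genes were lower, with a median log2 change of -0.29, and 5 of 9 N module genes were lower, with a median of -0.21. In the proximal membrane arm 5 of 8 genes were lower and 1 higher (median -0.24), and in the distal membrane arm 7 of 10 were lower and 1 higher (median -0.27). Under median centring 1 of 8 proximal arm genes, 5 of 10 distal arm genes and 4 of 9 N module genes were lower. The 5 of 5 in the Q module became 3 of 5 under median centring, with a variance model without a trend, and without sXBP1 array 4, GFP array 3 or GFP array 4. Differences between modules were not tested. Besides the core, the Q module holds Ndufa9, a nucleotide-binding subunit where the hydrophilic arm meets the membrane, and Ndufa5. Ndufa9 had signals of 3560.1, 3484, 3345 and 3144 in sXBP1 cells, against 4129, 4353, 4247 and 4158 in GFP cells (log2 change -0.32 ± 0.05, limma adjusted p = 6.83e-04). Ndufa5 had signals of 2644, 2654, 2713 and 2714 in sXBP1 cells, against 3302, 3487, 3263 and 3126 in GFP cells (log2 change -0.29 ± 0.04, limma adjusted p = 6.36e-04). Neither gene's groups overlapped, and the sXBP1 arrays of Ndufa5 were almost level with each other.

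The lowest estimate among the accessory genes, and among all 33, was that of Ndufs4, on chromosome 13 at 114287795 to 114388094. It encodes an N module subunit whose loss causes Leigh syndrome in humans and a matching encephalopathy in mice. Its signals were 1162, 1201, 941 and 1004 in sXBP1 cells, against 1639.7, 1735, 1676 and 1737 in GFP cells. All sXBP1 values were below all GFP values, and the level was 0.635 times that of GFP (log2 change -0.65 ± 0.08, limma adjusted p = 1.44e-04). Ndufa6, another N module gene, was also lower at -0.42 on the log2 scale (limma adjusted p = 0.00246). The 4 N module genes that did not pass were Ndufa7 at -0.13, Ndufv3 at -0.12, Ndufa12 at -0.09 and Ndufa2 at -0.08, with limma adjusted p of 0.0701 to 0.31. In Ndufa7 and Ndufv3 the groups nevertheless did not overlap.

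In the distal membrane arm the member with the smallest p was Ndufb8, on chromosome 19 at 44548571 to 44555442. Its protein is unstable outside the assembled enzyme and is widely used as an antibody marker of complex I. Ndufb8 had signals of 3633, 3304, 3265 and 3487 in sXBP1 cells, against 5189, 5114, 4903 and 5043 in GFP cells. The 2 groups lay apart by more than the spread within either, with a log2 change of -0.56 ± 0.05 (limma adjusted p = 1.55e-05). Ndufb10, a subunit on the intermembrane-space side, had signals of 1806, 1886, 1776 and 1990.0 in sXBP1 cells, against 2669, 2449, 2599.7 and 2672 in GFP cells (log2 change -0.48 ± 0.05, limma adjusted p = 8.44e-05). Ndufb3, a small membrane subunit, had signals of 2971, 2824, 2716 and 2662 in sXBP1 cells, against 3626, 3421, 3769 and 3596 in GFP cells (log2 change -0.37 ± 0.05, limma adjusted p = 3.56e-04). Neither of the pair overlapped between groups. Ndufb6, Ndufb2, Ndufb9 and Ndufb5 were lower as well, with log2 changes of -0.33 to -0.24 (Ndufb9 and Ndufb5 not under median centring), while Ndufb7 at -0.06 and Ndufb11 at 0.04 did not pass.

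In the proximal arm Ndufs5, a disulfide-bonded subunit facing the intermembrane space, had signals of 2163, 2216, 2004 and 2066 in sXBP1 cells, against 2872, 2739, 3004 and 3041 in GFP cells. All sXBP1 arrays were lower (log2 change -0.46 ± 0.05, limma adjusted p = 9.88e-05). Ndufa3, Ndufa10, Ndufa8 and Ndufc2 were lower, with log2 changes of -0.26 to -0.23, and all 4 lost the call under median centring. Ndufa10 also lost it when all its probe sets were averaged (-0.14, limma adjusted p = 0.0905). Its other probe set was called present on 0 arrays of either group, with mean signals of 108 in sXBP1 cells and 111 in GFP cells. Ndufa13, also known as GRIM-19, had -0.22 (limma adjusted p = 0.0919) and Ndufc1 had -0.12 (limma adjusted p = 0.103). Ndufa13 had a wide interval, and it passed when sXBP1 array 1 was left out (limma adjusted p = 0.0329), as did Ndufa7 (limma adjusted p = 0.0374), while Ndufc1 passed without GFP array 1 (limma adjusted p = 0.0388).

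A pair of members went the other way. Ndufa1, an X-linked gene at 37187588 to 37191238 for a small membrane subunit needed for assembly of the proximal arm, was higher. It had signals of 8239.9, 8136, 9073 and 9213 in sXBP1 cells, against 6269, 6241, 6581 and 6398 in GFP cells. All sXBP1 arrays lay above all GFP arrays, at 1.36 times the GFP level (log2 change 0.44 ± 0.05, limma adjusted p = 1.39e-04). Ndufb1, on chromosome 12 at 101968096 to 101975738 and encoding a small single-span subunit of the distal arm, was measured by 1 probe set of low signal and was higher by the test. Its signals were 237, 229, 306 and 316 in sXBP1 cells, against 213, 225, 188 and 194 in GFP cells. The groups came close, with sXBP1 array 2 near GFP array 2, and the log2 change was 0.37 ± 0.12 (limma adjusted p = 0.0447). This call was lost without sXBP1 array 3 (0.114) or 4 (0.117) or GFP array 1 (0.0708), 2 (0.0548), 3 (0.114) or 4 (0.108).

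Ndufa4 carries a complex I name but is now assigned to complex IV. It had signals of 5706, 5504, 5284 and 5573 in sXBP1 cells, against 5307, 5187, 4957 and 5241 in GFP cells. The groups overlapped, and the log2 change was 0.09 ± 0.04 (limma adjusted p = 0.141). It passed as higher under median centring (0.22, limma adjusted p = 0.00396). Without Ndufa4, 22 of 32 genes were lower, 2 higher, and the median was -0.25.

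Repeat probe sets of a gene mostly shared its call. Of the 65 complex I probe sets 41 were lower and 2 higher, against 13.5% lower among all single-symbol probe sets, and 25 were lower under median centring. In 18 genes with several probe sets, all probe sets had the same call in 11. Of the 16 dimmer probe sets of lower genes with a mean signal of at least 300, 14 were lower as well. All 3 probe sets of Ndufv1 were lower (-0.53 to -0.36), as were all 3 of Ndufv2 (-0.49, -0.28 and -0.21). Ndufs8 had 6 probe sets, of which 4 were lower, with changes of -0.54 to -0.17. Ndufa12 was not called by its brightest probe set, yet 2 of its 4 probe sets were lower, at -0.37 and -0.32, and 2 of the 5 of Ndufa7 were lower. No gene had probe sets past the threshold in both directions.

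**Figure D3:**
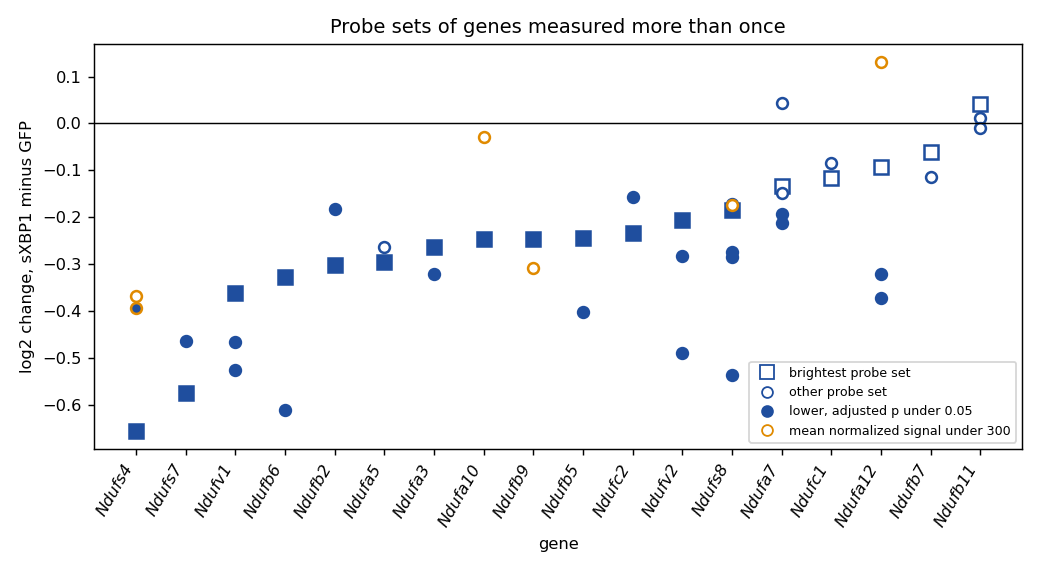
Log2 change (sXBP1 minus GFP) of each probe set for the 18 genes with more than 1, with squares for the brightest probe set, filled symbols for those called lower and orange edges for mean signals under 300. In 11 of the 18 genes all probe sets share a call, and those of Ndufs8 spread from -0.54 to -0.17.

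Some complex I genes were left out of the counts because their probe sets carry several symbols that cannot be told apart. The probe sets shared by Ndufb4, Ndufb4b and Ndufb4c were lower (-0.37 and -0.35, limma adjusted p = 7.1e-04 and 0.0173), and so was that of Ndufs6 and Ndufs6b (-0.25, limma adjusted p = 0.0052). The probe set of Ndufa11 and Ndufa11b did not pass (0.07, limma adjusted p = 0.574).

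On single arrays, 26, 28, 28 and 29 of the 33 genes lay below all 4 GFP arrays on sXBP1 arrays 1 to 4, and the median shift from the GFP mean was -0.17, -0.22, -0.28 and -0.28. The share of all genes that lay below all 4 GFP arrays on a single sXBP1 array was not computed. On sXBP1 arrays 1 to 4 the mean shift was -0.18, -0.21, -0.26 and -0.25 for the complex I genes. For all genes it was 0.01, 0.0004, 0.02 and 0.002. Without arrays 3 and 4, on which adipocyte markers were lowest, 19 genes were lower and 1 higher, with a median of -0.20, and without arrays 1 and 2, 24 were lower and 2 higher, with a median of -0.30. The members varied more among sXBP1 arrays than among GFP arrays, with a median SD of 0.089 in sXBP1 and 0.043 in GFP on the log2 scale, and so did all genes present on every array (0.120 in sXBP1 and 0.086 in GFP).

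**Figure D4:**
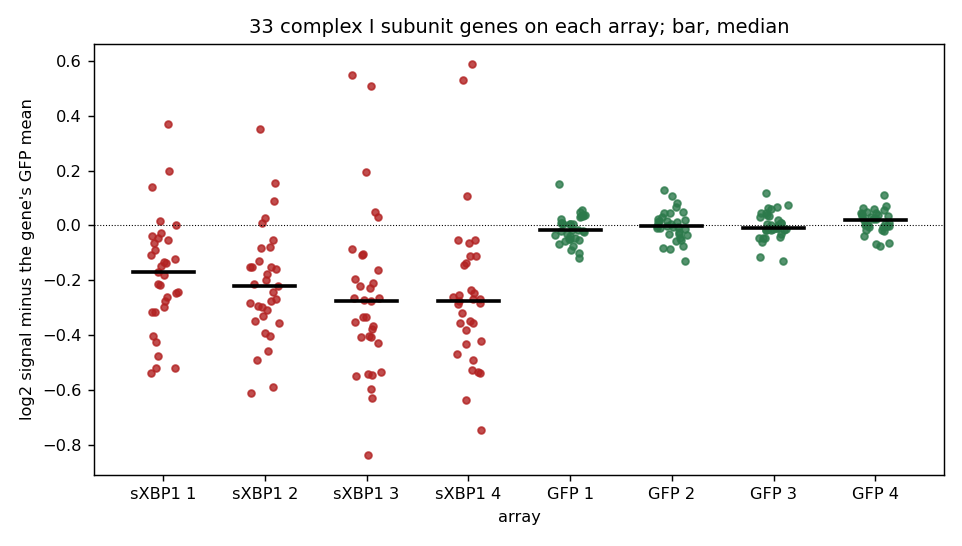
Log2 signal of each of the 33 complex I genes minus its GFP mean, on the 4 sXBP1 arrays and then the 4 GFP arrays, with bars for the median. The medians are -0.17 to -0.28 on the sXBP1 arrays, where 26 to 29 genes lie below all GFP values. The share of all genes that does so on a single array was not computed.

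Other mitochondrial genes give the setting. Among 14 measured factors listed as complex I assembly factors, 4 were lower and 1 higher, with a median log2 change of -0.06. The share lower was 28.6%, beside 22.6% of the genes present on every array. Ndufab1, counted among the 4, is the mitochondrial acyl carrier protein and itself a complex I subunit that the naming pattern leaves out. Ndufab1 was lower (-0.71 ± 0.05, limma adjusted p = 7.1e-06), but on its brightest probe set outside the shared-sequence classes the change was -0.19 (limma adjusted p = 0.166). Acad9, an assembly factor related to acyl-CoA dehydrogenases, was lower too (-0.69 ± 0.08, limma adjusted p = 1.36e-04). The only complex I gene of the mitochondrial genome measured was ND5, at -0.26 ± 0.22 (limma adjusted p = 0.463).

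In the other respiratory complexes 20 of 39 genes were lower and 1 higher, with a median of -0.18. All 4 genes of complex II (succinate dehydrogenase) were lower, with a median of -0.41, for example Sdhb at -0.46 and Sdhc at -0.31. Complex III had 5 of 9 genes lower (median -0.25), among them Uqcrc2 at -0.70 and Cyc1 at -0.61. Complex IV had 3 of 11 lower (27.3%, beside 22.6% of the genes present on every array; median -0.14), with Cox7a1, the heart and muscle type subunit, at -1.22 and Cox4i1 at -0.20. ATP synthase had 8 of 15 lower and 1 higher (median -0.20), with Atp5o at -0.48, Atp5pb at -0.41 and Atp5g1, a gene for its proton-carrying ring, higher at 0.29. Under median centring 3 ATP synthase genes and 1 complex IV gene were lower, against 4 in complex II and 4 in complex III. Sdhc lost its call when all probe sets were averaged (-0.12, limma adjusted p = 0.567), and Cox4i1 under median centring (limma adjusted p = 0.65).

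**Figure D5:**
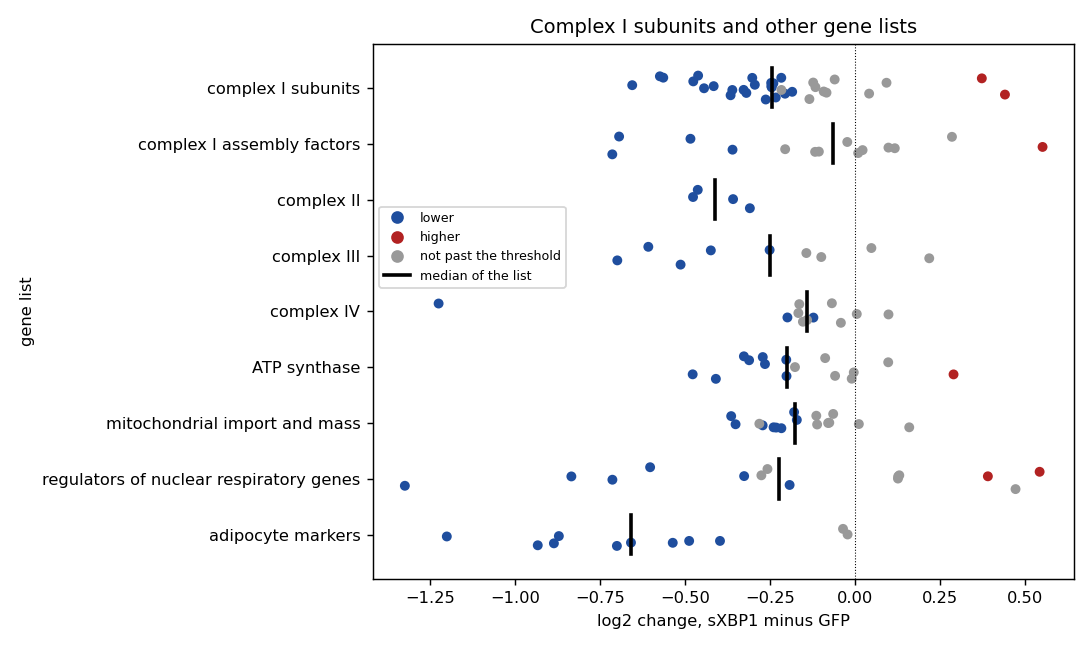
Log2 change (sXBP1 minus GFP) of each gene in the complex I list and in other lists, with colour for the call and a bar for the median of each list. The complex I median of -0.24 lies between those of complex II (-0.41) and of the assembly factors (-0.06).

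Some markers of mitochondrial mass and import were lower, and the others did not pass the test. Of 16 such genes 8 were lower and 0 higher, with a median of -0.18, with 2 lower under median centring and 3 with a variance model without a trend. Over all genes 10.6% were lower under median centring and 11.9% without a trend. The 8 include the import proteins Tomm22 (-0.36) and Timm44 (-0.35). Cs, the citrate synthase often used to gauge mitochondrial content, had -0.06 ± 0.04 (limma adjusted p = 0.325). Vdac1, the outer membrane channel, was lower by the test (-0.17 ± 0.04, limma adjusted p = 0.0161), but not without GFP array 4 (0.0502) or under median centring (-0.04, limma adjusted p = 0.664).

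Among 14 regulators of nuclear respiratory genes, 6 were lower and 2 higher (Gabpb1 and Pprc1), with a median of -0.22. The share lower was 42.9%, beside 14.4% lower and 12.9% higher over all genes, so the higher count was near the share over all genes. Ppargc1b, a coactivator that drives mitochondrial gene expression, had signals of 153, 202, 153 and 121 in sXBP1 cells, against 398, 429, 438 and 384 in GFP cells. The deposited calls were present on 1 of 4 sXBP1 arrays and on 4 of 4 GFP arrays, and the log2 change was -1.32 ± 0.13 (limma adjusted p = 5.2e-05). Nrip1, a corepressor of oxidative genes in fat, was lower (-0.83). Ppargc1a, counted among the 6, was called present on 0 arrays of either group on its brightest probe set, so no fold is given. A dimmer Ppargc1a probe set was called present on 0 of 4 sXBP1 arrays and on 4 of 4 GFP arrays, but the authors' deposited table describes it as another gene. The dimmest one was called present on 0 of 4 sXBP1 arrays and on 3 of 4 GFP arrays. Its mean signals were 7.74 in sXBP1 cells and 35.9 in GFP cells, and its groups did not overlap (limma adjusted p = 0.00129). The remaining Ppargc1a probe sets did not pass. Esrra, the estrogen-related receptor alpha, was lower at -0.33 ± 0.10 (limma adjusted p = 0.0375), a call lost when most single arrays were left out (up to 0.0997). Nrf1 at 0.13 (limma adjusted p = 0.449) and Tfam, the mitochondrial transcription factor, at 0.13 (limma adjusted p = 0.139) did not pass.

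Markers of cell types did not all move with the complex I genes. Many adipocyte, preadipocyte and fibroblast markers were lower, and no macrophage or endothelial marker was. Of 11 measured adipocyte markers 9 were lower, with a median of -0.66, and their summed signal was 53835 to 65300 on sXBP1 arrays and 72393 to 73961 on GFP arrays. Of 9 preadipocyte and fibroblast markers 5 were lower, with sums of 63163 to 68489 on sXBP1 arrays and 72172 to 74887 on GFP arrays. Of 8 macrophage markers 4 were higher, namely Cd14, Cd68, Lyz2 and Csf1r, with sums of 2199 to 3897 on sXBP1 arrays and 750.4 to 783 on GFP arrays, while the defining markers Ptprc and Itgam were called present on no array. A further defining marker, Adgre1, was called present on all 8 arrays, with a log2 change of -0.12 (limma adjusted p = 0.667). Of 5 endothelial markers 0 passed in either direction, with sums of 392 to 429 on sXBP1 arrays and 236 to 403 on GFP arrays, and Pecam1 and Kdr were called present on no array. Flt1 was called present on all 8 arrays and did not pass the test, with all sXBP1 values above all GFP values (0.32, limma adjusted p = 0.116). The part of these differences, and of the RNA quality ratio, in the complex I result was not tested.

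In the authors' deposited table, a ratio of group means for each probe set, all 33 members were listed, and all 33 had the direction of the fit described here: the GFP mean was higher for 29 and the sXBP1 mean for 4. That table holds the same signals as those fitted here, so the match in direction is not separate support.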

How the data were processed

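Each sample gave 1 Affymetrix array, and group and replicate number came from the sample titles. The authors deposited one signal intensity for each probe set on a linear scale; the submitters' processing notes name MAS5, without a version or scaling. The authors' deposited comparison table also holds present calls and a signed fold (a score column), and its signals equal the value table's. Of 22690 probe sets 64 controls were left out and 22626 tested. A single symbol was annotated for 20380, several for 691 and none for 1555. All 33 members' Entrez identifiers matched the RefSeq table of GRCm38.p6.

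Signals were taken as log2(signal + 16), quantile normalized, and fitted with limma 3.58.1 in R 4.3.3 (lmFit, then eBayes with a trend; two-sided); p-values were adjusted by Benjamini-Hochberg across tested probe sets, and the threshold was 0.05. Changes are sXBP1 minus GFP with their standard error; the added constant understates changes of dim genes. Normalized signals printed are on the linear scale. Apart from the median signals of the members and of all genes, signals of different probe sets are not compared. Precision is limited by the 4 arrays a group. The fit was tested on simulated data. Figures were drawn with matplotlib 3.10.9.

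The members and the gene lists were chosen with earlier results of these data known, so lists are described by counts and medians with no test. Named with values on every array were the nuclear core subunits, the 8 other members with the smallest p, the members called higher, Ndufb8 and Ndufa4. Of each other list the 2 genes with the smallest p were named, with Xbp1, Ppargc1a, Esrra, Nrf1, Tfam, Cs and Vdac1 fixed by name; the counted marker genes, the other subunits and the probe set examples were named after their values were seen. Lists were the other respiratory complexes, assembly factors, regulators, import and mass, modules, and markers of 4 cell types. Alternatives tried were no quantile normalization, median centring, pseudocounts of 1 and 64, a filter on present calls, the mean of all probe sets, no trend, array weights, a replicate block, arrays left out, and, chosen after seeing the data, the brightest probe set without a shared-sequence suffix.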

Additional observations from a re-analysis of the deposited data

How the results depend on the processing

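Over 20 alternatives, 13 of the 22 lower members passed in every one, and 9 failed in at least 1; no estimate of a called member changed sign. Median centring, which puts the median of all genes at 0.07, left 13 lower and 3 higher (22 and 2 as reported), a median of -0.13 and 25 lower probe sets (41 as reported). Over all genes it left 10.6% lower and 16.8% higher. The 9 lost there were Ndufa3, Ndufa8, Ndufa10, Ndufb5, Ndufb9, Ndufc2, Ndufs3, Ndufs8 and Ndufv2. Relative to the median of all genes, the members' median was -0.23 with quantile normalization and -0.20 without it or with median centring. The higher count was 1 without quantile normalization, without a trend, with array weights, with a replicate block and without sXBP1 arrays 3 and 4. Leaving out 1 array at a time gave 19 to 24 lower and 1 to 2 higher members, 36 to 42 lower probe sets and medians of -0.28 to -0.23. Without sXBP1 arrays 1 and 2 the median was -0.30. The causes were not tested. The replicate block gave 23 lower members, 40 lower probe sets and 3127 called genes (3386 without it); same-numbered arrays deviated together only weakly (correlations of 0.14, 0.04, -0.08 and 0.13), 3 of 4 sXBP1 arrays correlated best with their own number, and the numbers were not taken as pairs. The 4 arrays a group limit the precision, and 6 dimmer probe sets of members had mean signals under 300.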

Other observations

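Some members share a start region with a gene on the opposite strand, within 500 bases. Of 9 such members, 7 had a measured neighbour, of which 2 were lower and 2 higher in sXBP1 cells. Over all genes 14.4% were lower and 12.9% higher. Ndufa1, higher in sXBP1 cells, overlaps the start of Rnf113a1, a zinc finger gene, by 16 bases, and Rnf113a1 was higher as well (log2 change 0.76 ± 0.15, limma adjusted p = 0.00419). Ndufb3, lower, starts 64 bases from Fam126b, which was lower too (-0.81 ± 0.13, limma adjusted p = 0.00134). Ndufb5, lower, starts 308 bases from Mrpl47, a mitochondrial ribosomal protein gene, which was higher (0.37 ± 0.08, limma adjusted p = 0.00593). Ndufb1, higher, starts 236 bases from Cpsf2, which had -0.01 ± 0.08 (limma adjusted p = 0.973). Rps28, which starts 10 bases from Ndufa7, was lower (-0.13 ± 0.04, limma adjusted p = 0.0298), while Ndufa7 at -0.13 did not pass. The pairs were picked by position and no test was made over them.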
